A study of Homo sapiens with 4 samples.

Results

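The genes described here were the 4 genes of the type I and type II interferon receptors and the 4 genes of the Janus kinases, taken by their GENCODE 44 symbols from 62700 annotated genes, of which 20046 are protein coding. *IFNGR1* and *IFNGR2* encode the receptor of IFN-γ, *IFNAR1* and *IFNAR2* the receptor of the type I interferons, and *JAK1*, *JAK2*, *JAK3* and *TYK2* the kinases. For each gene every FLI1 peak was taken that lay within 3 kb of the transcription start site (TSS) of any of its transcripts, in the gene body, or within 50 kb of the gene. These regions held 38 of 30819 peaks in control cells and 48 of 39654 peaks in cells treated with IFN-γ. The data were Flag ChIP-seq of HK1, a long-established cell line of nasopharyngeal carcinoma, made to overexpress the ETS transcription factor FLI1 with a Flag tag. Cells had received PBS (the control) or IFN-γ for 24 h, and both groups carried the FLI1 overexpression, so the antibody to Flag read the introduced protein and not the endogenous one. There was 1 Flag library per condition, so whether IFN-γ changed binding could not be tested. No cells without Flag-FLI1 were compared, so peaks that the antibody would give without FLI1 could not be set apart. The files hold peaks and no expression values, so neither the identity of the cells nor the expression of these genes was checked.

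Interferon receptors have no enzyme activity of their own and signal through kinases bound to their inner tails. IFN-γ binds IFNGR1, which recruits IFNGR2, and the JAK1 and JAK2 bound to these chains then phosphorylate the receptor and STAT proteins, which dimerise and enter the nucleus. Type I interferons bind IFNAR2 and IFNAR1, which carry JAK1 and TYK2, whereas JAK3 serves the interleukin receptors that share the common γ chain and is best known from lymphocytes. ETS factors such as FLI1 recognise a GGAA core, and FLI1 also binds runs of consecutive GGAA units.

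All values below are for a peak summit. The fold enrichment over the local background was deposited by the authors. The number of DNA fragments piled up at the summit was recovered from the fold enrichment and the deposited p-value. Control peaks had a median of 16 fragments and IFN-γ peaks one of 22, and the peaks at the 8 genes had medians of 18.5 and 25, so most values rest on few fragments. Peaks of both libraries that overlapped by at least 1 bp were called shared and compared as a pair. The ratio of a pair is the IFN-γ pileup over the control pileup, divided by 1.46, taken as the relative depth of the libraries, with an exact binomial interval of 95% that covers counting error only. The 1.46 is the ratio of the lowest local backgrounds of the lists, and every ratio rests on the assumption that these backgrounds scale with depth, which was not tested. Where a library has no peak, the site fell short of its calling cutoff, which leaves weak binding possible.

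Each of the 8 genes carried a promoter peak, one within 3 kb of the TSS of an annotated transcript, with and without IFN-γ. Of all protein-coding genes 61.9% had such a peak in control cells, 59.7% after IFN-γ and 56.0% in both. The 8 genes had between 4 and 21 distinct TSSs against a median of 5. Among the protein-coding genes in that range 67.4% had a promoter peak in both libraries. That range is not a close match. *JAK1* and *TYK2* had 21 TSSs, *IFNGR1* and *IFNAR1* 16, *IFNAR2* 13, *JAK3* 11, *IFNGR2* 7 and *JAK2* 4. Each further TSS can widen the region searched, and the share for genes with as many TSSs as each member was not computed. Counted within 1 kb of the TSS of the MANE transcript, the reference transcript of a gene, 7 of the 8 genes had a peak in both libraries, against 48.1% of protein-coding genes. *JAK3* was the exception.

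The sequences at these 7 proximal promoters are shown because every gene's own start site carried its peak there. Each line gives 28 bases of GRCh38 around the GGAA core nearest to the summit, read 5′ to 3′ on the strand of the core, with the core in capitals. Where the nearest core differed between the libraries, that of the IFN-γ library is shown.
*IFNGR1*, chr6:137219400-137219427, minus strand: gaccccggtgacGGAAgtgacgtaaggc
*IFNGR2*, chr21:33403409-33403436, plus strand: cgctgctgctcgGGAAgaggcgggccct
*IFNAR1*, chr21:33324731-33324758, plus strand: cggaaagagtgaGGAAgaagagaatgca
*IFNAR2*, chr21:33229981-33230008, minus strand: tcctacccgccgGGAAgaagcgtcttta
*JAK1*, chr1:64966324-64966351, minus strand: ccaggcgcacacGGAAgtggtgagtgtc
*JAK2*, chr9:4985249-4985276, plus strand: aggaaggagagaGGAAgaggagcagaag
*TYK2*, chr19:10380474-10380501, minus strand: ggacgcgggcgcGGAAggagcgcggccg
In all 7 lines the core was followed by G, as it was at 52.7% of all IFN-γ promoter peaks with a GGAA. By the control summits this was so at 4 of the 7 genes, with the summit in intron 1 taken for *IFNAR1*. The core of *IFNGR1*, *JAK1* and *TYK2* was also preceded by C, a form (CGGAAG) found at the nearest core of 17.2% of those IFN-γ peaks. The control summits gave this form at 2 of the 7 genes, against 18.8% of control promoter peaks with a GGAA. None of the 7 summits had the octamer CAGGAAGT or CCGGAAGT within 100 bp on either strand, which 15.0% of the IFN-γ promoter peaks and 13.4% of the control promoter peaks had. *IFNGR1* and *JAK1* each had a single core in the window in both libraries. In the IFN-γ library the core lay 0 bp from the summit at *IFNAR1*, *JAK1* and *JAK2* and 34 bp away at *IFNGR1*.

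**Figure D1:**
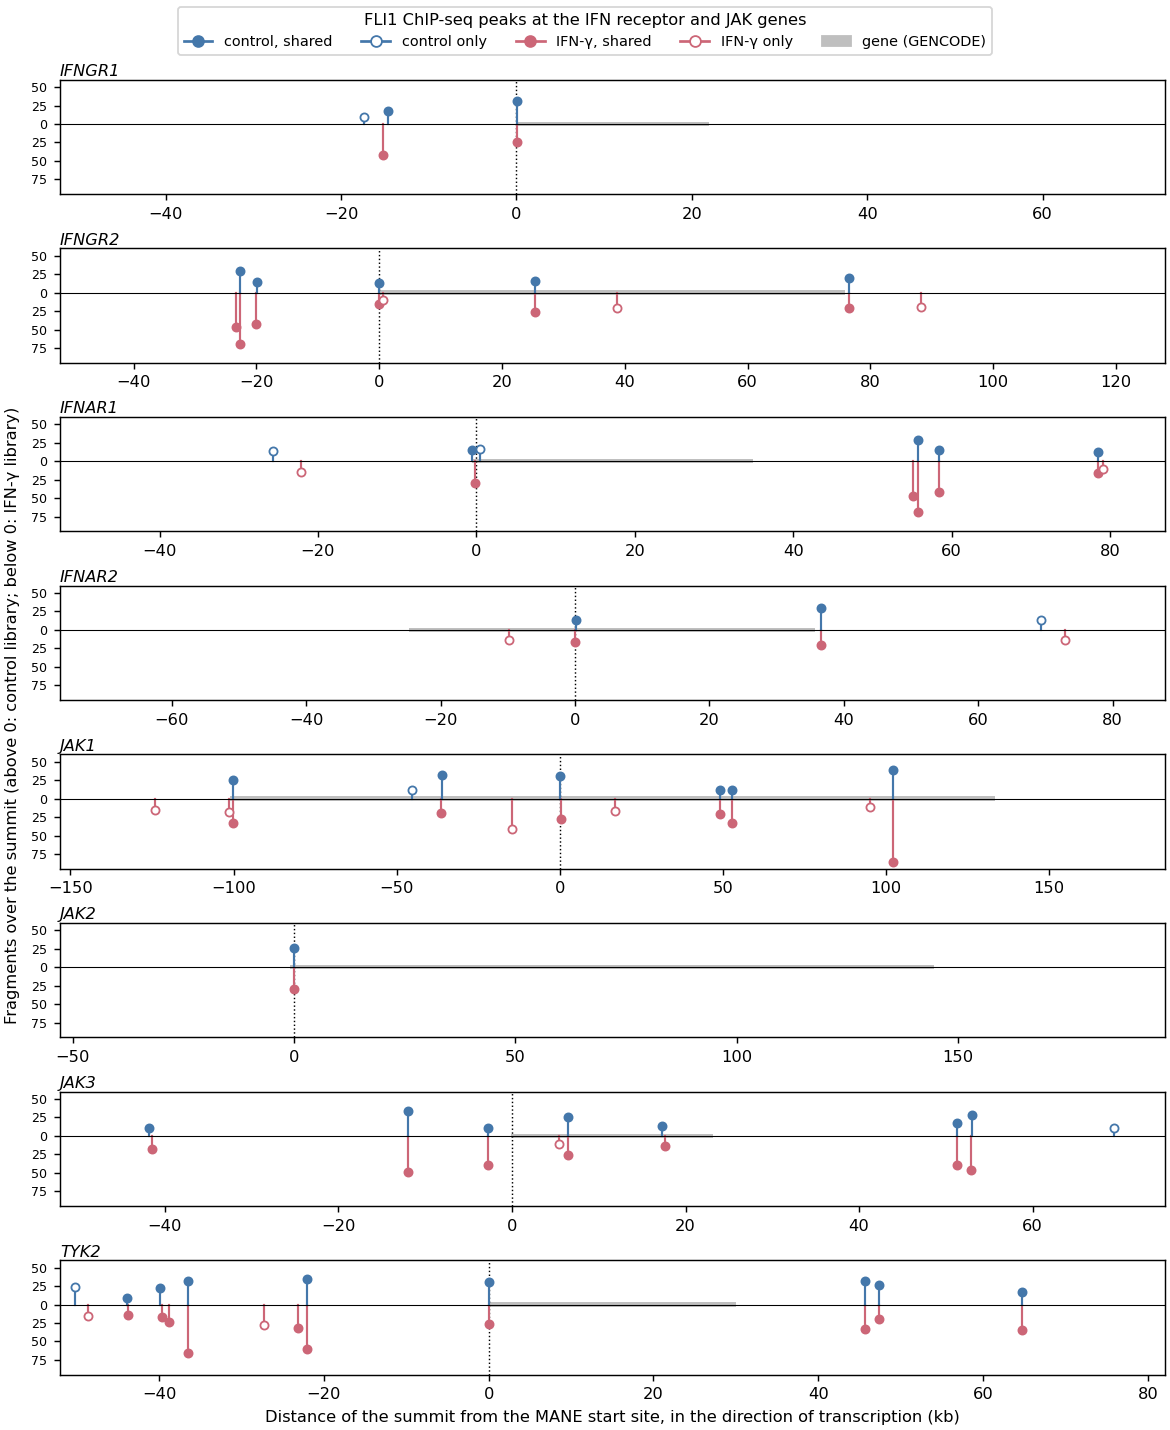
Fragments over the summit of each FLI1 peak (vertical axis, control above 0 and IFN-γ below 0) by its distance from the MANE TSS in kb, in the direction of transcription, for the 8 genes with 50 kb either side. Filled points are shared peaks, open points are peaks of 1 library and grey bars are the genes, and *JAK2* shows a single shared peak at its start site whereas *JAK1* and *TYK2* show 11 and 12 peaks in the IFN-γ library.

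*IFNGR1* (ENSG00000027697, chr6:137197483-137219449, minus strand), the ligand-binding chain of the IFN-γ receptor, had 3 peaks in the control library and 2 peaks in the IFN-γ library. The promoter peak stood on the start site itself, with summits 4 bp and 7 bp from the MANE TSS, in exon 1. It held 31 fragments without IFN-γ and 24 with it, at 10.6-fold and 6.47-fold enrichment. The ratio was 0.532 (0.299 to 0.936), the lowest of the 7 proximal promoters and the one whose interval lay below 1. That call was lost when ratios were scaled to the median promoter pair, where it was 0.608 (0.342 to 1.07). Among all promoter pairs it stood at the 10.9th percentile. The peak was in the top 20.8% of the control list and the top 47.4% of the IFN-γ list by p-value. The other shared peak, 14.6 kb upstream, went from 17 to 42 fragments, a ratio of 1.70 (0.945 to 3.18), and its summits were 635 bp apart, so the values describe different positions in a broad region. A heptamer of the AP-1 type (TGANTCA, either strand) lay within 100 bp of the summit in each library, and the core of the interferon-stimulated response element (ISRE, GAAA and GAAA with 2 bases between) within 100 bp of the IFN-γ summit. A control peak of 10 fragments 17.4 kb upstream had no partner.

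*IFNGR2* (ENSG00000159128, chr21:33403413-33479348, plus strand), the chain that brings in JAK2, had 5 control and 9 IFN-γ peaks. The promoter peak at its TSS was among the weaker ones, with 13 control and 16 IFN-γ fragments, at 6.20-fold and 4.44-fold, 35 bp and 15 bp from the TSS. The ratio was 0.845 (0.381 to 1.91), and the peak was in the top 60.2% and the top 77.4% of the lists. The IFN-γ library alone had a further promoter peak of 10 fragments in intron 1, 615 bp downstream of the TSS. In intron 4, 25.3 kb into the gene, a shared peak held 16 and 26 fragments, a ratio of 1.12 (0.577 to 2.23). Larger values lay outside the gene. Between the end of *IFNAR1* and the start of *IFNGR2*, a gap of 43.5 kb, the control library had 2 peaks with 29 and 15 fragments and the IFN-γ library 3 peaks with 47, 69 and 42 fragments. The central peak, 22.7 kb upstream of the *IFNGR2* TSS, went from 29 to 69 fragments at 13.1-fold and 16.7-fold, with summits 14 bp apart and a ratio of 1.63 (1.04 to 2.62). The peak 19.98 kb upstream went from 15 to 42 fragments, a ratio of 1.92 (1.04 to 3.73). The remaining IFN-γ peak overlapped the control peak of 29 fragments, whose summit was 721 bp away, and gave a ratio of 1.11 (0.686 to 1.83). The annotated TSS nearest to these peaks was that of ENSG00000289939.

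The windows of 121 bases around the IFN-γ summits of these intergenic peaks are shown because both intervals lay above 1, on the plus strand with GGAA and TTCC, the same core on the other strand, in capitals.
22.7 kb upstream of *IFNGR2*, chr21:33380687-33380807: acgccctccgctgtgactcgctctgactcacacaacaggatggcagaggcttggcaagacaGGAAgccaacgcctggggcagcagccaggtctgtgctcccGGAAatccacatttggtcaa
19.98 kb upstream of *IFNGR2*, chr21:33383352-33383472: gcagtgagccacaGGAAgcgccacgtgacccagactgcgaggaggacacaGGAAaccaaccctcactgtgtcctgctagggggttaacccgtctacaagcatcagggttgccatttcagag
Each window held 2 GGAA cores, and neither held the octamer or a run of 4 or more GGAA units. The first also held a TGANTCA heptamer.

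*IFNAR1*, *IFNAR2* and *IFNGR2* lie side by side on chromosome 21 with *IL10RB*, which encodes a chain shared by the receptors of IL-10, IL-22 and the type III interferons. The 3 genes of the set span 274 kb there, and 4 control and 6 IFN-γ peaks fell in the regions of more than 1 of them and were counted once. *IFNAR2* (ENSG00000159110, chr21:33205282-33265675, plus strand), the high-affinity chain of the type I receptor, had 14 and 16 fragments at its promoter, at 5.999-fold and 6.05-fold, 76 bp and 50 bp into exon 1. The ratio was 0.785 (0.359 to 1.74). The IFN-γ library alone had a peak of 13 fragments 9.82 kb upstream of the MANE TSS, nearest to the start of the readthrough gene *IFNAR2-IL10RB*. At the start of *IL10RB*, 36.5 kb downstream of the *IFNAR2* TSS, the pileup went from 30 to 20 fragments and the fold enrichment from 15.1 to 5.13, a ratio of 0.458 (0.246 to 0.833). The highest pileup of the cluster was thus at *IL10RB* in control cells, level within counting error with the 29 fragments between *IFNAR1* and *IFNGR2*, and between those genes after IFN-γ.

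*IFNAR1* (ENSG00000142166, chr21:33324387-33359864, plus strand), the chain that binds TYK2, differed from the other proximal promoters in where the summits lay. The control library had a peak of 15 fragments 508 bp upstream of the MANE TSS and another of 17 fragments 446 bp downstream of it, in intron 1. The IFN-γ library had a single peak of 29 fragments 225 bp upstream. Paired with the upstream control peak, whose summit was 283 bp away, it gave a ratio of 1.33 (0.689 to 2.66). This was the highest ratio of the 7 proximal promoters and the one above 1, but the pair compares different positions. It also leaves out the control peak in intron 1. The TSS nearest to the IFN-γ summit was that of ENSG00000289238, 127 bp away, with a start of *IFNAR1* 159 bp away. The fold enrichments of the pair were 3.99 and 6.93. In the flanks, peaks 25.7 kb upstream in the control library and 22.1 kb upstream in the IFN-γ library, with 14 fragments each, had no partner, and the control one held the octamer.

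**Figure D2:**
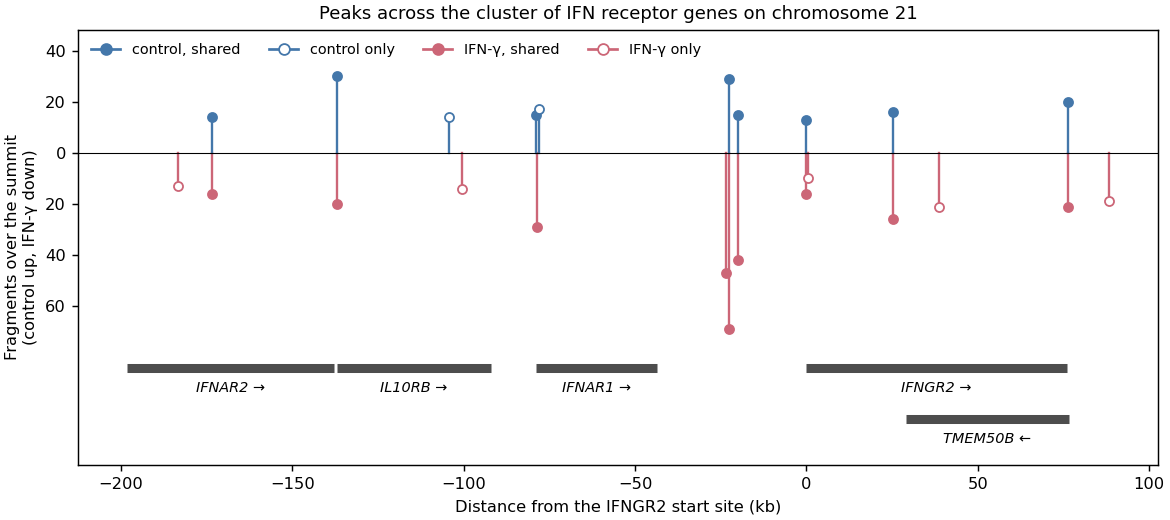
Fragments over each summit across the receptor cluster on chromosome 21 (control above 0, IFN-γ below 0), by distance in kb from the *IFNGR2* TSS, with filled points for shared peaks and bars for the genes and their direction. The peaks of 69, 47 and 42 fragments in the gap between *IFNAR1* and *IFNGR2* are the highest IFN-γ peaks drawn here, whereas the IFN-γ promoter peaks of the 3 receptor genes hold 10 to 29 fragments.

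*JAK1* (ENSG00000162434, chr1:64833223-65067754, minus strand), the kinase used by both interferon receptors, is a gene of 235 kb with 21 distinct TSSs, and had 7 control and 11 IFN-γ peaks. At the MANE TSS the summits lay 200 bp and 212 bp into exon 1, with 30 and 28 fragments, 13.5-fold and 8.73-fold, and a ratio of 0.641 (0.369 to 1.11). At the distal cluster of start sites about 100 kb upstream, from which longer coding transcripts begin, a shared peak had 25 and 33 fragments, a ratio of 0.907 (0.523 to 1.59), and the IFN-γ library had a further peak of 18 fragments 158 bp from another of these starts. Both promoter regions of *JAK1* thus carried a peak in both libraries.

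The peak of the whole set with the most fragments in each library was neither of these. It lay in intron 8, 102 kb downstream of the MANE TSS and 534 bp from the start of a short *JAK1* transcript that has no defined coding sequence, so it was counted as a promoter peak by that transcript alone. It held 39 control and 86 IFN-γ fragments, at 14.4-fold and 28.2-fold, with the summit on the same base in both. The ratio was 1.51 (1.03 to 2.27), at the 89.1th percentile of promoter pairs and the 67.8th percentile of pairs away from promoters. It ranked in the top 12.9% of the control list, below the peak near *CDC37* (top 11.8%, 17.5-fold), and the top 3.83% of the IFN-γ list. Its window is shown because it is the highest pileup at the 8 genes in either library, on the strand of the gene with GGAA and TTCC in capitals.
*JAK1* intron 8, chr1:64864262-64864382, minus strand: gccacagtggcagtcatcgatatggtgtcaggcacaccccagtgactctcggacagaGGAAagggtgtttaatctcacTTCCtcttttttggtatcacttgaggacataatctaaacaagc
The octamer CAGGAAGT lay on the minus strand at chr1:64864255-64864262, overlapping the last base of this window, and the 201 bases around the summit held 5 GGAA cores.

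Within intron 1 of *JAK1*, 52.8 kb downstream of the MANE TSS, a shared peak stood at a GGAA repeat. It is shown because it was the one shared peak of the set with such a run within 100 bp of both summits.
*JAK1* intron 1, chr1:64913659-64913702, plus strand: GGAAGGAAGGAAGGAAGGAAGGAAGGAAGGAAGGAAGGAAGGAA
The run of 44 bases has 11 units. The pileup was 12 fragments without and 33 with IFN-γ, at 5.05-fold and 10.8-fold, and the ratio was 1.89 (0.951 to 4.02), with an interval that reached below 1. A neighbouring shared peak 49.1 kb downstream, also in intron 1, had 12 and 21 fragments and a ratio of 1.202 (0.565 to 2.68). The TSS nearest to both was that of ENSG00000234784.

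Upstream of the MANE TSS but inside the longer *JAK1* transcripts, the peak nearest to *LINC01359*, a long noncoding RNA gene, went from 32 to 20 fragments, a ratio of 0.429 (0.233 to 0.774), the lowest of the 35 pairs. By contrast, a peak of 41 fragments 14.7 kb upstream was called in the IFN-γ library alone. It had the highest pileup of the unpaired peaks of the set. Its fold enrichment was 9.25, below that of unpaired peaks near *PDE4A* (12.2, control) and *CDC37* (10.2, IFN-γ). Divided by the relative depth the 41 fragments correspond to 28.2, more than at 78.9% of the control peaks. This *JAK1* peak had both a TGANTCA heptamer and an ISRE core within 100 bp.

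*JAK2* (ENSG00000096968, chr9:4984390-5129948, plus strand), the kinase bound to IFNGR2, was the sparsest of the 8. It had 1 peak in each library, in a gene of 146 kb with 50 kb either side. Its summits were 14 bp (control) and 9 bp (IFN-γ) from the MANE TSS, with 26 and 29 fragments, 13.1-fold and 11.7-fold, and a ratio of 0.766 (0.436 to 1.35). Of protein-coding genes 28.9% had 1 or no control peak in the gene and its flanks, and 23.7% had 1 or no IFN-γ peak. The median gene had 3 in each. By fold enrichment the *JAK2* promoter was nevertheless second to *JAK1* among the control proximal promoters and highest among those of the IFN-γ library. This rank rests partly on a low local background, which in the control library was at the lowest of the list (1.06). By control pileup *JAK2*, with 26 fragments, was below *IFNGR1* (31), *JAK1* (30) and *TYK2* (30).

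*JAK3* (ENSG00000105639, chr19:17824780-17848071, minus strand) had no peak within 1 kb of its MANE TSS in either library. Its promoter peaks lay at internal start sites or upstream. In exon 8, 6.52 kb into the gene and 612 bp from the start of a *JAK3* transcript with no defined coding sequence, the pileup was 25 and 26 fragments at 8.64-fold in both libraries, a ratio of 0.714 (0.396 to 1.29). Farther into the gene the control library had 13 fragments in intron 21 and the IFN-γ library 14 fragments in intron 22. These peaks overlapped, with a ratio of 0.740 (0.322 to 1.71), but their summits were 332 bp apart. The IFN-γ library had a further peak of 11 fragments in exon 6.

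The peak 2.70 kb upstream of *JAK3* showed the largest ratio of the set. It went from 11 control to 39 IFN-γ fragments, at 4.20-fold and 13.3-fold, a ratio of 2.44 (1.22 to 5.27), at the 97.9th percentile of promoter pairs. The summits were 49 bp apart. The window around the control summit is shown because this peak held 3 octamers, more than any other of the set, on the strand of the gene with GGAA and TTCC in capitals.
*JAK3* upstream, chr19:17850625-17850745, minus strand: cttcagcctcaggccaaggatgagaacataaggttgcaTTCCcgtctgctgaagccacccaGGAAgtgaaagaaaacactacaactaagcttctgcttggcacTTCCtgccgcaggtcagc
CAGGAAGT lies here on both strands, at chr19:17850679-17850686 (minus) and chr19:17850637-17850644 (plus), and CCGGAAGT at chr19:17850756-17850763 (plus), beyond the left end of the line.

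In the flanks of *JAK3*, both peaks nearest to *B3GNT3*, a glycosyltransferase gene, were shared, with 28 and 46 fragments (ratio 1.13, 0.690 to 1.87) and with 17 and 40 fragments (ratio 1.62, 0.896 to 3.04). The peak nearest to *SLC5A5*, the sodium-iodide symporter gene, had 11 and 18 fragments with a GGAA run of 28 bases and 7 units near the IFN-γ summit.

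*TYK2* (ENSG00000105397, chr19:10350533-10380608, minus strand), the kinase of IFNAR1, had a single peak in the gene or at its promoters in each library. The summits lay 45 bp and 87 bp into exon 1, with 30 and 27 fragments, 11.6-fold and 6.36-fold, and a ratio of 0.618 (0.354 to 1.08). The other 8 control and 11 IFN-γ peaks were in the flanks of this gene-dense region, and most stood at promoters of other genes. Near *CDC37*, a co-chaperone of kinases, the shared peak 22.0 kb upstream had 35 and 60 fragments and a ratio of 1.177 (0.763 to 1.84). The same control peak overlapped a second IFN-γ peak of 32 fragments, with its summit 1032 bp away and a ratio of 0.628 (0.376 to 1.04). Near *PDE4A*, a cAMP phosphodiesterase gene, the peak 36.5 kb upstream had 32 and 66 fragments and a ratio of 1.42 (0.915 to 2.23). A broad control peak of 23 fragments 39.9 kb upstream overlapped 2 IFN-γ peaks. One had 23 fragments, a ratio of 0.687 (0.368 to 1.28) and a summit 1043 bp away, and the other had 17 fragments, a ratio of 0.508 (0.255 to 0.993) and a summit 276 bp away, so neither compares the same position. Downstream, the peak nearest to *ICAM3*, a leukocyte adhesion gene, had 32 and 33 fragments (0.708, 0.422 to 1.19), that nearest to ENSG00000274425 had 26 and 20 (0.528, 0.280 to 0.984), and that nearest to *FDX2*, a mitochondrial ferredoxin gene, had 17 and 35 (1.41, 0.771 to 2.69).

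Of the 6 control peaks with no partner, the highest was near *PDE4A*, with 24 fragments. Of the 13 such IFN-γ peaks, 2 in the *TYK2* flank stood at GGAA runs. The one 27.2 kb upstream had 28 fragments and its run is shown because it matches that of *JAK1* intron 1 base for base.
Upstream of *TYK2*, chr19:10407821-10407864, minus strand: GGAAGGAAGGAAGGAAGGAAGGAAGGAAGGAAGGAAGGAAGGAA
This run of 11 units is a common simple repeat, and reads from such repeats can align at several places. The other, 48.6 kb upstream near *PDE4A*, had 15 fragments and a run of 4 units. A GGAA run was within 100 bp of the summit at 1 of 38 control and 4 of 48 IFN-γ peaks, against 6.94% and 10.8% of all summits.

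The proximal promoters were set in order by pileup. Without IFN-γ they fell from 31 fragments at *IFNGR1* through 30 at *JAK1* and *TYK2* (exact Poisson interval 20.2 to 42.8) and 26 at *JAK2* (17.0 to 38.1) to 15 at *IFNAR1* (8.40 to 24.7), 14 at *IFNAR2* and 13 at *IFNGR2* (6.92 to 22.2). The value for *IFNAR1* is that of its paired control peak, whereas its unpaired control peak in intron 1 had 17. In the IFN-γ library *JAK2* and *IFNAR1* had 29 fragments (19.4 to 41.6), *JAK1* 28, *TYK2* 27, *IFNGR1* 24 and *IFNAR2* and *IFNGR2* 16 (9.15 to 26.0). No neighbours in either order differed beyond counting error. The intervals of the genes with 30 and 13 control fragments overlapped, as did those of the genes with 29 and 16 IFN-γ fragments. Overlap of separate intervals cannot show that such values are equal, and the difference between the ends of each order was not tested. The lowest values were at *IFNAR2* and *IFNGR2* in both.

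**Figure D3:**
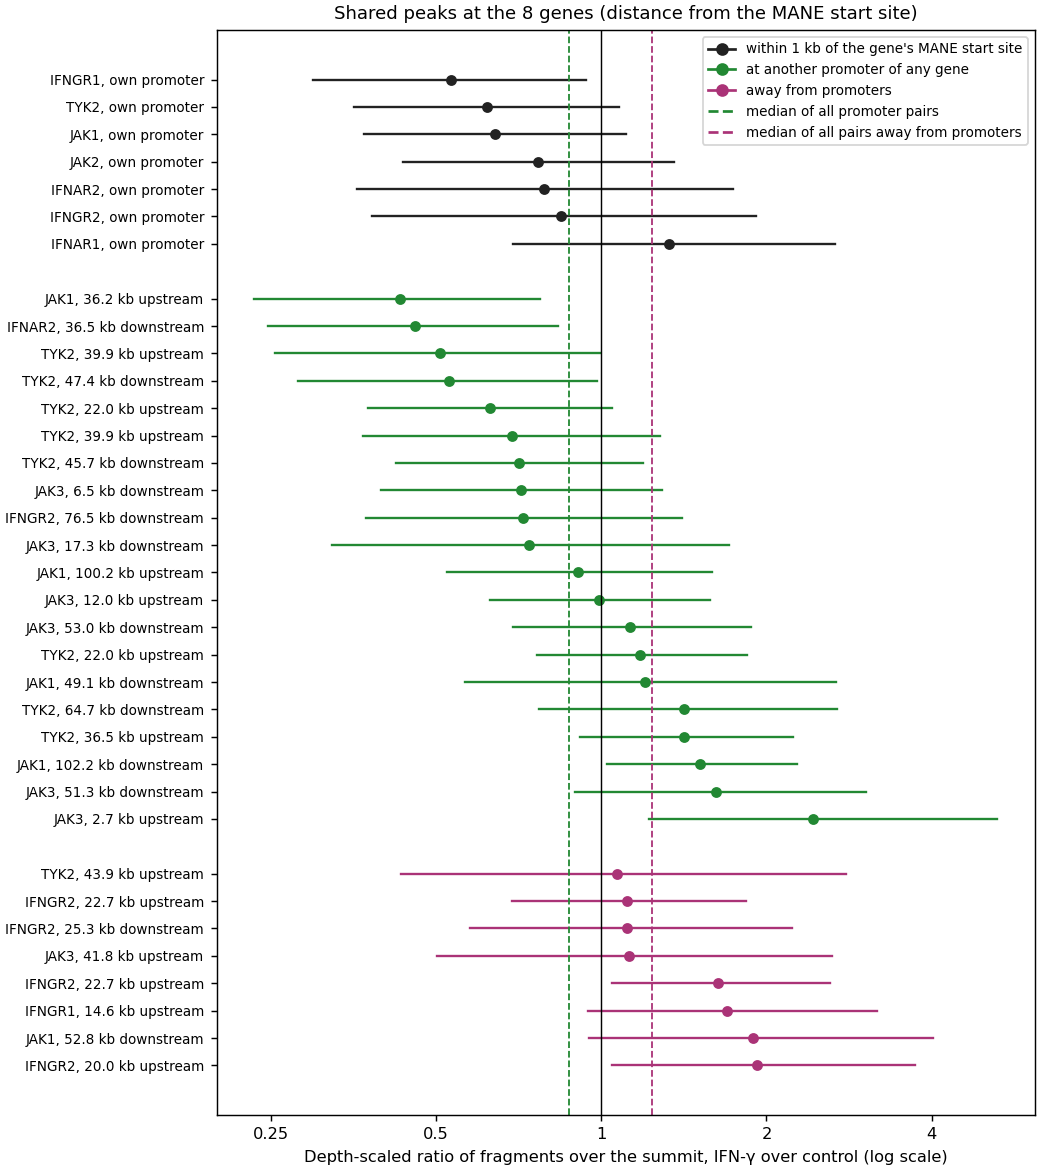
Depth-scaled ratio of fragments, IFN-γ over control, on a log axis, with exact 95% binomial intervals for the 35 shared pairs at the 8 genes, grouped by their place and named by the gene and the distance of the control summit from its MANE TSS. Dashed lines are the medians of all promoter pairs (0.874) and of all pairs away from promoters (1.24), and 6 of the 7 proximal promoters lie left of 1 while all 8 pairs away from promoters lie right of it.

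Of the peaks at the 8 genes, 32 of 38 control peaks (84.2%, exact binomial interval 68.7 to 94.0) and 35 of 48 IFN-γ peaks (72.9%, 58.2 to 84.7) were shared, against 77.5% and 61.0% of all peaks. The intervals include the shares of all peaks. The 35 pairs had a median ratio of 0.990. At the 7 proximal promoters the median was 0.766 and 6 ratios were below 1. At the 8 pairs away from the promoters of any gene the median was 1.38 and all ratios were above 1, from 1.07 to 1.92, although 2 of these pairs share a control peak and 2 of the 8 were below 1 as ratios of fold enrichments. The same order was present over all peaks, with medians of 0.874 for 14601 promoter pairs and 1.24 for 9945 pairs away from promoters. No proximal promoter had an interval above 1 and 1 of 7 had one below 1, where 7.44% and 13.8% of all promoter pairs did. Away from promoters 2 of 8 intervals lay above 1 and 0 below 1, where 18.9% and 1.81% of all such pairs did. These shares are near the background, and the order of promoters below other sites is not particular to the interferon receptor and kinase genes. With 1 library per condition, a difference between the libraries and one from IFN-γ cannot be told apart. The 4 pairs with intervals above 1 were the *JAK3* upstream peak, the *JAK1* intron 8 peak and the 2 intergenic peaks upstream of *IFNGR2*. The 5 below 1 were at the promoter of *IFNGR1* and near *LINC01359*, *IL10RB*, ENSG00000274425 and *PDE4A*. Scaled instead so that the median promoter pair had a ratio of 1, 8 intervals lay above 1, and the 2 that stayed below 1 were near *LINC01359* and *IL10RB*.

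Across the set, GGAA was within 100 bp of 37 of 38 control and 47 of 48 IFN-γ summits, against 96.1% and 97.9% of all summits. The octamer was at 5 control and 6 IFN-γ summits, while 12.8% and 13.5% of all summits had it. The peaks with it were the *JAK1* intron 8, *JAK3* exon 8, *JAK3* upstream and *FDX2* peaks in both libraries, an unpaired control peak near *IL10RB*, and unpaired IFN-γ peaks near *IFNAR2-IL10RB* and *MRPS21P1*. The GC box GGGCGG was at 17 control and 16 IFN-γ summits (31.4% and 21.1% of all). The AP-1 heptamer was at 2 and 5 summits (17.7% and 22.1% of all), the ISRE core at 0 and 4 (4.07% and 7.96% of all), and the STAT-type palindrome TTCNNNGAA at 1 in each library (5.33% and 6.38% of all). All motifs were searched on both strands, and the ISRE core and TTCNNNGAA can overlap GGAA cores. These counts are too small to be read as different from the background. The background also depends on place, and 27 of the 35 pairs were at a promoter of any gene. The GC box was at 47.7% of control and 38.2% of IFN-γ promoter summits, against 9.83% and 5.94% of other summits. The AP-1 heptamer was at 10.1% and 13.6% of promoter summits, against 27.7% and 29.6% of other summits.

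The remaining genes of the pathway were taken as a list of 61: 31 other cytokine receptor genes, the 7 STAT genes and 23 regulators. A promoter peak was present at 44 in control cells (72.1%), at 46 after IFN-γ (75.4%) and at 40 in both (65.6%), with 11 in neither. Of all protein-coding genes 61.9%, 59.7% and 56.0% had such peaks. The list was not matched to them by number of TSSs, and the difference was not tested. By role, peaks in both libraries were found at 16 of 31 receptors (51.6%), 5 of 7 STATs (71.4%) and 19 of 23 regulators (82.6%). The receptors were thus below the 56.0% of all protein-coding genes, and the other roles above it. The 10 receptors with none were *IL2RA*, *IL10RA*, *IL12RB2*, *IL20RA*, *IL20RB*, *IL21R*, *IL22RA1*, *IL23R*, *GHR* and *PRLR*. The regulator with none was *PIAS3*. Among the STAT genes *STAT3* had promoter peaks of 51 and 54 fragments and *STAT2* of 28 and 30. Among the receptors *OSMR*, the oncostatin M receptor gene, had the lowest p-value, with 123 and 167 fragments. Next by the lower p-value of the 2 libraries were *IL5RA* with 92 and 77 fragments and *IL6R* with 44 and 61. Among the regulators *SH2B1*, an adaptor that binds JAK2, had 95 and 143 fragments, and the phosphatase genes *PTPN6* and *PTPN11* had 68 and 129 and 89 and 104.

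**Figure D4:**
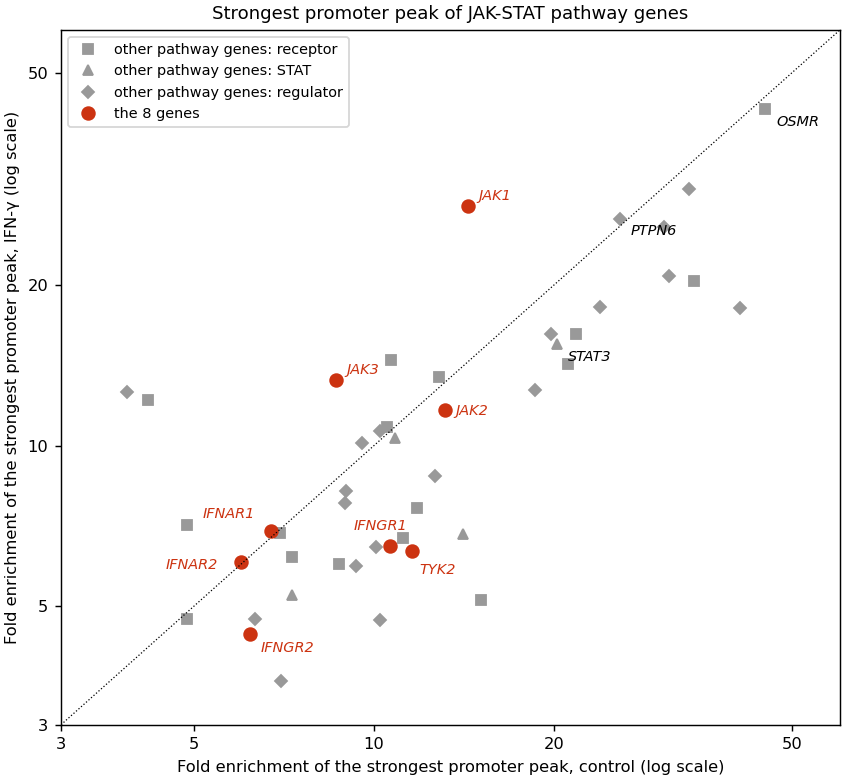
Fold enrichment of the strongest promoter peak in the control library against the IFN-γ library, on log axes, for the 8 genes (red circles) and 39 of the 40 other pathway genes with a promoter peak in both libraries (grey, by role), with a dotted line of equal values. The 8 genes lie between 4.44-fold and 28.2-fold, below *OSMR*, and *JAK1* and *JAK3* are the ones well above the line.

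By the strongest promoter peak of each gene, whichever start site it served, the 8 genes ranged from 5.999-fold (*IFNAR2*) to 14.4-fold (*JAK1*) without IFN-γ and from 4.44-fold (*IFNGR2*) to 28.2-fold (*JAK1*) with it. The peak differed between the libraries at *JAK3* (exon 8 without and the upstream peak with IFN-γ) and at *IFNAR1* (intron 1 and upstream), and at *JAK1* it was that of intron 8 in both. The receptor genes were thus within the range of the kinases or below it. The pathway gene with the most similar pair of fold enrichments, by distance on the log2 scale over the 2 libraries and 40 genes, was *SOCS4* for *IFNGR1* (distance 0.075), *SOCS6* for *IFNGR2* (0.097), *LIFR* for *IFNAR1* (0.055) and *IFNAR2* (0.28), *LEPR* for *JAK2* (0.21), *IL27RA* for *JAK3* (0.33) and *IL13RA1* for *TYK2* (0.095). *JAK1* had no close match, and *PTPN6* was nearest at 0.85.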

How the data were processed

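Flag ChIP-seq was analysed from 2 libraries of HK1 cells, 1 per condition, and the 2 input libraries were not analysed here. Per the methods and labels, the authors used Cutadapt 1.18 for trimming, Bowtie2 2.3.4.1 for alignment to GRCh38, Picard to remove duplicates, and MACS2 2.1.2 to call peaks. Whether the input was used in calling is not given in the sources used here. For each peak the authors deposited the fold enrichment (a ratio to the local background), the −log10 p-value, the −log10 q-value and a score. The score was not used.

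The pileup p and background b of each summit were solved from fold enrichment = (p + 1)/(b + 1) and the Poisson p-value with mean b, with a largest relative error of 6.21e-06. No read totals were used, and the relative depth was the ratio of the lowest backgrounds (1.54 over 1.06). Peaks were assigned with GENCODE 44 on GRCh38, in 1-based coordinates. Motifs were searched in 201 bases around each summit, and a GGAA run had at least 4 units. With 1 library per condition no test between conditions was made. Steps were tested on simulated data. Genome sequence was read with pysam 0.24.0, tables with pandas 2.3.3, and figures were drawn with matplotlib 3.10.9, under Python 3.11.15 (scipy 1.17.1, numpy 2.4.6).

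The 8 genes and the list of 61 pathway genes were chosen with earlier results of these data known. The genes named were the 8 genes, the genes whose TSS was nearest to a described peak, the 3 pathway genes of each role with the highest −log10 p at a promoter, and the pathway gene most like each of the 8. The pathway genes named for having no promoter peak, the CGGAAG form of the core, and the sequences shown were chosen after the values were seen. The alternatives were q-value cutoffs, lists of equal length, other windows, start sites, flanks, overlaps, scalings and motif windows. Some genes that this rule names are not reported here.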

Additional observations from a re-analysis of the deposited data

How the results depend on the processing

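No paired analysis was possible because there was a single library per condition, which also left no replicate to leave out. Of 64 alternative values for the counts and shares, 53 stayed within 1.5 times the count or within the interval of the share. The 8 of 8 genes with a promoter peak held in both libraries under all 7 alternatives, and the pathway list kept 39 to 46 genes per library. With flanking peaks kept only where the nearest TSS was that of 1 of the 8 genes, 20 control and 27 IFN-γ peaks remained. With an overlap of at least 50% of each peak, or with summits within 100 bp, the shared share fell to 65.8% of control and 52.1% of IFN-γ peaks. Within 50 bp of the summit the octamer was at 2 control peaks, and GGAA runs at 0 control and 2 IFN-γ peaks. Scaled to the median promoter pair, 8 intervals lay above 1 and 2 below 1, against 4 and 5. The call at the *IFNGR1* promoter was among those lost, and it became 0.608 (0.342 to 1.07). No pair whose interval left out 1 crossed 1 under another scaling or as a ratio of fold enrichments, but 2 of the 8 pairs away from promoters fell below 1 as ratios of fold enrichments. The limits are the single library per condition and the depth, since most pileups at the 8 genes were under 40 fragments and intervals of a ratio spanned at least 2-fold, and counting error leaves out the variation between replicate cultures.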
